A study of Mus musculus with 28 samples.

Results

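DNase I hypersensitive sites (DHSs) that appeared in *Tgfbr1* KO CD4+ T cells and in neither WT peak list were examined. The peak lists of 4 DNase-seq libraries were merged wherever peaks overlapped by at least 1 bp, and a merged region was kept when it held a peak of the KO control list, the KO list for TGF-β + IL-4 (hereafter the KO cytokine list) or both, and no peak of either WT list. This left 2800 of 50176 merged regions, or 5.58% of all. Of these, 1758 were in the KO control list alone, 858 in the KO cytokine list alone and 184 in both KO lists. For comparison, 14008 merged regions were found in WT lists only and 33368 in lists of both genotypes. Because the lists themselves defined these classes, the positions and strengths of the peaks are given as descriptions without a test.

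Both genotypes were *Tgfbr1* f/f *Ert2-cre*+ mice on a C57BL/6 background, adult and of both sexes. WT mice received oil, and KO mice received tamoxifen, which activates the Cre recombinase in all cells that carry it. *Tgfbr1* is therefore deleted in other tissues as well as in T cells. Oil and tamoxifen are named in the titles of the DNase-seq libraries, whereas RNA-seq titles give only WT or KO and the culture. The same line and treatment were assumed for RNA-seq, although the study also kept *Tgfbr1* f/f *Cd4-cre*+ mice. Naïve CD4+ T cells were stimulated with anti-CD3 and anti-CD28 and cultured without added cytokine (control) or with 1 of the cytokines TGF-β and IL-4 or the pair. DNase-seq was done for control and TGF-β + IL-4 with 1 library per genotype and culture, all 4 labelled as mouse 3 of their genotype, and RNA-seq was done for all 4 cultures with 3 libraries each. WT and KO are therefore also oil against tamoxifen and 1 mouse against another in DNase-seq, and these cannot be told apart.

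A DHS is a stretch of chromatin that DNase I cuts readily because nucleosomes are displaced there, usually by bound transcription factors, and DHSs mark promoters, enhancers and insulators. *Tgfbr1* encodes the type I TGF-β receptor, a kinase that phosphorylates Smad2 and Smad3, which then enter the nucleus with Smad4. IL-4 acts through STAT6, and the combination of both cytokines drives naïve CD4+ T cells toward the IL-9-producing Th9 fate.

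The sequences below are the mm9 reference around the summits of strong regions. The first 4 were chosen because their summits lay in exons, and capitals mark coding exon bases.
Eef1a1 (chr9:78326778-78326928, plus strand): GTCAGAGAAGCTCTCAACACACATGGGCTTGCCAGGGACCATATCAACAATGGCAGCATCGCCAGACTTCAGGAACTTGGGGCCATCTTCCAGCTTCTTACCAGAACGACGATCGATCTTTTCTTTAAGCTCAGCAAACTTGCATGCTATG
Rpl4 (chr9:64026019-64026169, plus strand): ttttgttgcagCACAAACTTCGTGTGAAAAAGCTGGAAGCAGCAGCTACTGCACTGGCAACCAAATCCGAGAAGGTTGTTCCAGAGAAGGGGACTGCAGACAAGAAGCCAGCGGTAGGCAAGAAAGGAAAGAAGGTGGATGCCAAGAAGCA
Rps15 (chr10:79756388-79756538, plus strand): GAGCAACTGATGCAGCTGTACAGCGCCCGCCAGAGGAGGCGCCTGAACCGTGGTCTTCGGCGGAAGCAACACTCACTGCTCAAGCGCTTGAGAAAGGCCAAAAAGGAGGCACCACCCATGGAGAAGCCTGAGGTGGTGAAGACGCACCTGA
Pisd (chr5:33080654-33080804, plus strand): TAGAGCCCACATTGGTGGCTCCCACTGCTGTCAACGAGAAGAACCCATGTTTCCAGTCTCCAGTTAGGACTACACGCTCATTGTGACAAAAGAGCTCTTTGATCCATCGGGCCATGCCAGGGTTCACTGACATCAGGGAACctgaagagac
The next 5 were strong summits outside coding exons, shown because they held a match to a consensus motif. Equally selected summits near *Zfp667*, *P4ha2*, *Gpm6a*, *Cables2* and *Frem2* held no match and are not shown. Capitals mark the matches, which were AP-1 for *Zfp1*, CTCF and RUNX for *Zhx2*, CTCF for *Fam49a* and *Flt3*, and IRF and NRF1 for *Atg7*.
Zfp1 (chr8:114186477-114186627, plus strand): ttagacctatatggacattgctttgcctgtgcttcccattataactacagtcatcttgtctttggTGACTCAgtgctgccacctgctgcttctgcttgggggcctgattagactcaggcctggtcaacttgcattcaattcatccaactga
Zhx2 (chr15:57475982-57476132, plus strand): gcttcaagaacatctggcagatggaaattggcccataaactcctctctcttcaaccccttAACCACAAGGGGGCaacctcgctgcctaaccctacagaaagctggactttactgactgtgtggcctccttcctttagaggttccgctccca
Fam49a (chr12:12325093-12325243, plus strand): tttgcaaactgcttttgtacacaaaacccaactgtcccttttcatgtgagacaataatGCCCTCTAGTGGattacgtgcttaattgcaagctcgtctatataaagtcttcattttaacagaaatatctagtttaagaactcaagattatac
Flt3 (chr5:148169239-148169389, plus strand): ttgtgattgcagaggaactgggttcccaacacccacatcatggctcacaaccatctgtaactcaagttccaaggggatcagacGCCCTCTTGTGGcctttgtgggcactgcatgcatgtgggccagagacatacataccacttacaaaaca
Atg7 (chr6:114566768-114566918, plus strand): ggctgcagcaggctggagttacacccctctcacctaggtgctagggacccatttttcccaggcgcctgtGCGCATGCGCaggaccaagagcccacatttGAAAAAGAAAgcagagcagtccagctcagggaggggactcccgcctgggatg

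The regions were weak within their own lists. Strength was ranked as the percentile of the −log10 p that the authors' peak caller gave each peak within its list, and fold enrichment is that over the local background. In the KO control list the 1942 regions found in KO lists only had a median percentile of 12.3 and a median fold enrichment of 3.52, whereas the 31173 regions shared with WT lists had a median percentile of 53.4 and a median fold enrichment of 4.83. In the KO cytokine list the corresponding values were 12.2 and 3.71 for 1042 regions and 52.6 and 5 for 25524 shared regions. Only 32 of the 1942 and 38 of the 1042 lay at or above percentile 50 of their list. Regions found in both KO lists were stronger, with medians of 17.6 in the control list and 21.1 in the cytokine list. These 184 regions made up 9.47% of the KO-only regions of the control list and 17.7% of those of the cytokine list. Regions found in WT lists only had a median best percentile of 20.3, above the 12.3 of regions found in KO lists only, and 19% of them were in both WT lists, against 6.57% in both KO lists. The regions were also short, with a median width of 230 bp, compared with 262 bp for WT lists only and 429 bp for both genotypes.

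**Figure D1:**
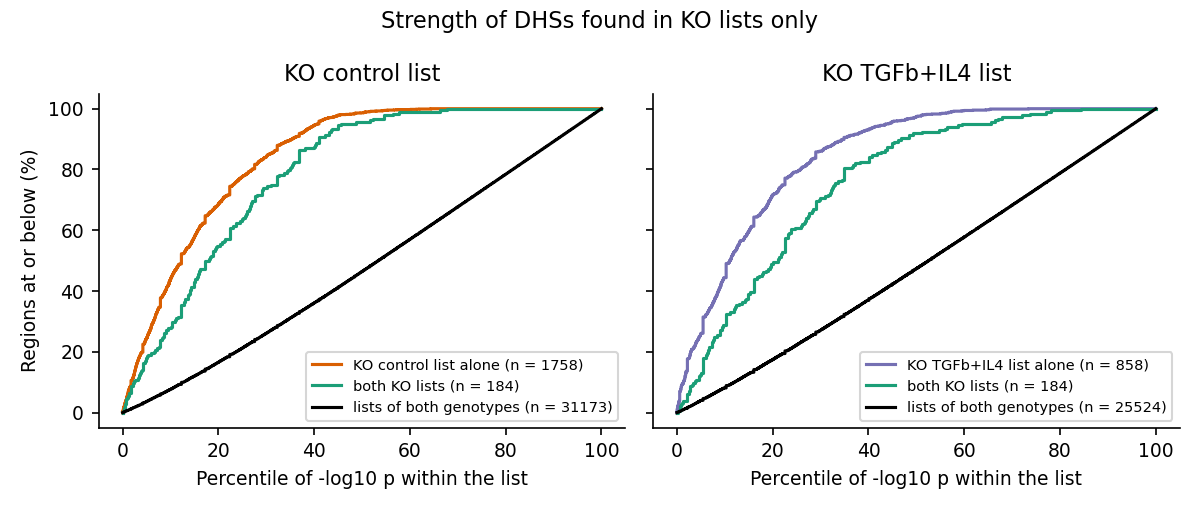
Cumulative share of regions (y axis, %) against the percentile of −log10 p within the KO control list (left) and the KO cytokine list (right), for regions found in that list alone, in both KO lists, or in lists of both genotypes. The curves of regions without a WT peak rise early, and those of shared regions stay near the diagonal. Regions of both KO lists have medians of 17.6 (left) and 21.1 (right).

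Many of the regions had WT peaks nearby. The median distance from a region to the nearest WT peak was 4577 bp, and 514 regions (18.4%) lay within 500 bp of one. The regions just inside the rule were 6 that missed a WT peak by 10 bp or less, the closest by 3 bp. Just outside it were 4 regions of both genotypes in which the largest overlap of a KO with a WT peak was 10 bp or less, the smallest being 5 bp. At the other end, 34.4% of the regions lay more than 10 kb from any WT peak. The share of merged regions that were in KO lists only ranged from 4.72% on chromosome 10 to 7.2% on chromosome 14 among the autosomes, and was 5.23% on X.

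The position of a summit was read from the GENCODE vM1 annotation of mm9, with a promoter taken as 1 kb on either side of a transcript start. Promoters held 22.2% of the summits, introns 37%, exons 6.64% and intergenic sequence 34.1%. Regions in WT lists only had fewer promoter summits (13.5%) and more intronic ones (46.3%), and regions of both genotypes had more promoter summits (37.1%). The exon share was higher than in either other class, at 3.29% in WT lists only and 2.84% in both genotypes. Within the KO lists it was 4.49% in the control list alone, 10.7% in the cytokine list alone and 8.15% in both.

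**Figure D2:**
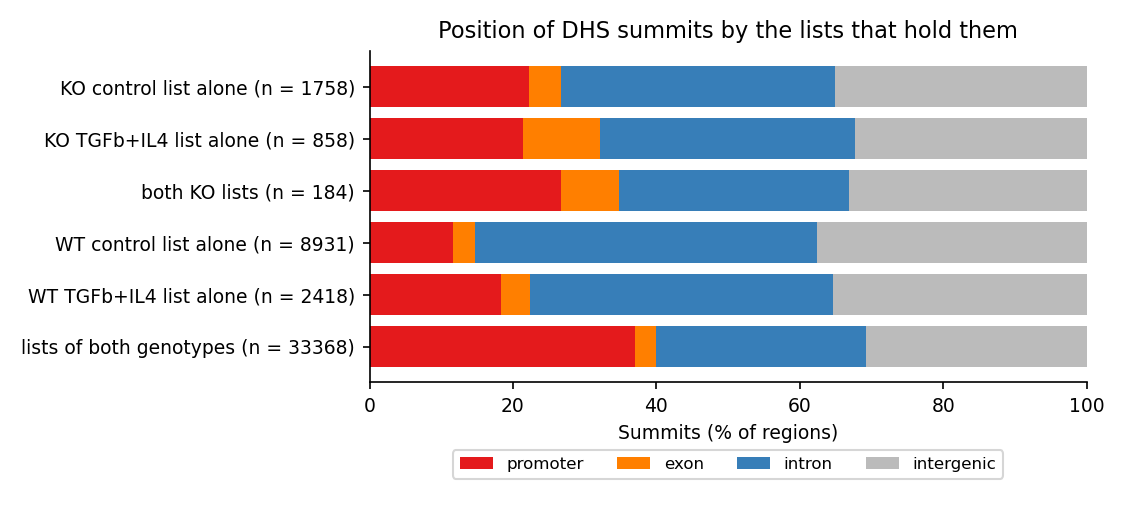
Share of summits (x axis, %) in promoters, exons, introns and intergenic sequence, for regions grouped by the lists that held them. The exon segment is widest for the KO cytokine list alone (10.7%), and the promoter segment for lists of both genotypes (37.1%).

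Most later-exon summits of regions in the KO cytokine list alone lay in highly expressed genes (63 of 106). A later-exon summit was defined as one in exon 2 or beyond of a protein-coding gene and in no first exon. Such summits were found in 221 of the 2800 regions (7.89%, 95% Wilson interval 6.95 to 8.95), in 106 of 858 regions of the cytokine list alone (12.4%, 10.3 to 14.7) and in 96 of 1758 of the control list alone (5.46%, 4.49 to 6.62). The interval covers counting error only, since there is no replicate library. The genes that held them differed in expression, measured as the mean RPKM over all 24 RNA-seq columns. The median was 187 RPKM for the cytokine list alone and 193 RPKM for both KO lists, but 1.12 RPKM for the control list alone. It was 3.17 RPKM for regions found in the WT control list alone and 2.45 RPKM for the WT cytokine list alone.

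Genes of at least 100 RPKM, which were 1114 of the 24089 genes in the table (4.62%), held 63 of the 106 later-exon summits of the KO cytokine list alone and 12 of the 19 of both KO lists. They held 6 of 96 in the KO control list alone, 15 of 277 in the WT control list alone and 6 of 108 in the WT cytokine list alone. The KO cytokine list also stood apart as a whole, with 139 such summits among its 26566 regions (0.523%), against 0.203%, 0.222% and 0.266% in the WT control, WT cytokine and KO control lists. When the KO cytokine list was left out and the remaining lists were merged again, 19 such regions remained without a WT peak in place of 81. Most of this drop was fixed beforehand, because 63 of the 81 were in that list alone. The part that transcript abundance has in these summits was not tested.

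**Figure D3:**
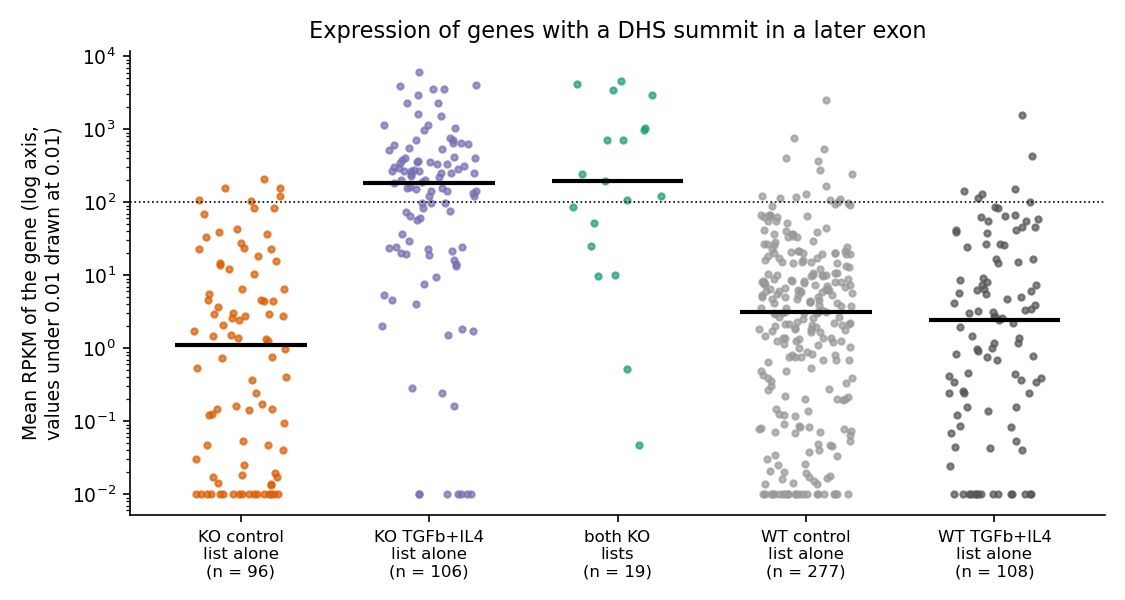
Mean RPKM over 24 RNA-seq columns (y axis, log scale) of each gene with a later-exon summit, 1 point per region, by the lists that held the region. Bars mark medians and the dotted line 100 RPKM. Medians are 187 and 193 RPKM for the KO cytokine list alone and both KO lists, and between 1.12 and 3.17 RPKM for the other 3 groups.

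The 81 regions fell in 76 genes, and in 52 of them every base of the region was annotated as exon. By symbol, 9 of the 76 were ribosomal protein genes (11.8%), as were 82 of the 1114 genes of at least 100 RPKM (7.36%). *Eef1a1*, which encodes the elongation factor that brings aminoacyl-tRNA to the ribosome, held the strongest of all regions found in KO lists only, at chr9:78326689-78327030. It ranked at percentile 84.4 of the cytokine list with a 5.33-fold enrichment and at percentile 35.8 of the control list with a 3.17-fold enrichment. Its nearest WT peak was 1594 bp away, and 91.2% of its bases were exonic. Of the 32-base words around its summit, 72.7% occurred more than once in mm9, so its position is uncertain. *Eef1a1* RNA was at 3470, 4550 and 5750 RPKM (lowest, median and highest of 12 WT columns) and at 3570, 4610 and 4910 RPKM in the 12 KO columns, so that the genotypes overlapped.

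*Rps14*, which encodes a protein of the small ribosomal subunit, held a region of both KO lists at percentiles 43.1 and 73.7. *Rpl4*, of the large subunit, held the strongest region of the cytokine list alone, at chr9:64025957-64026253 and percentile 73.4, and *Rps15* held another at percentile 65.2. Their mean RNA levels were 2910, 2320 and 1630 RPKM. Other regions of the same kind lay in *Pfn1*, encoding profilin, which binds actin monomers (percentile 56 of the cytokine list), in *Cd52*, encoding a lymphocyte surface glycoprotein (56.3), in *Ubb*, encoding ubiquitin (51), in *Lck*, encoding the kinase that starts T cell receptor signaling (46.8), and in *Actb*, encoding β-actin (30.7). *Cd3d* and *Cd247*, which encode chains of the T cell receptor complex, each held 1 in the cytokine list alone, at percentiles 3.62 and 27.5. *Mtch2*, encoding an outer mitochondrial membrane protein, held a region of both KO lists that ranked higher in the control list (percentile 67.7) than in the cytokine list (34.9).

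Part of the regions lay in repeated sequence. In 99 of the 2800 (3.54%), at least 50% of the 32-base words within 100 bp of the summit occurred more than once in mm9. The share was 11.4% in both KO lists, 4.55% in the cytokine list alone and 2.22% in the control list alone, compared with 1.47% in WT lists only and 1.11% in both genotypes. The densest cluster spanned 97.7 kb at chr1:85241444-85339121, around the uncharacterised gene *C130026I21Rik*. It held 13 regions found in KO lists only among 20 merged regions, of which 5 were in both KO lists, and all 13 were in repeated sequence by this measure. A second cluster of 11, at chr8:19875214-20023010 around *6820431F20Rik* and *2610005L07Rik*, held 9 in repeated sequence. Reads from repeated sequence cannot be assigned to 1 copy, so these positions are uncertain. The RNA of the 3 genes was at medians of 3.3 RPKM in WT and 3.16 RPKM in KO for *C130026I21Rik*, 9.46 and 10.7 RPKM for *6820431F20Rik*, and 2.53 and 2.23 RPKM for *2610005L07Rik*, and none was called in the means per mouse described below. With the identified WT libraries, also described below, *C130026I21Rik* was called lower under TGF-β + IL-4 (log2 difference −0.66, limma adjusted p = 0.00497). A noncoding gene, *4930465M20Rik*, was nearest to 4 regions of 25 and was listed at 0 in all KO columns and at no more than 0.0242 RPKM in WT columns.

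Of the other strong regions in both KO lists, 1 lay 3670 bp upstream of *Zfp667*, a zinc finger gene, at percentiles 57.7 and 66.4 (chr7:6234376-6234685), with a WT peak 442 bp away. A region in an exon of *Pisd*, which encodes the mitochondrial phosphatidylserine decarboxylase, reached percentiles 56.5 and 67, with 72.7% of the words around its summit repeated. A region 26306 bp upstream of *Atg7*, which encodes an E1-like enzyme of autophagy, reached 54.6 and 72 (chr6:114566669-114567004), and every word around its summit was repeated in the genome. *H2-K1*, a classical MHC class I gene, had a region 81 bp downstream of its start at percentiles 48.8 and 67.9. All 151 bases around that summit were coding, and the mean RNA level of the gene was 1290 RPKM. The rest of the 10 strongest were an intron of *Flt3*, a growth factor receptor gene (40.2 and 43.8), and regions whose nearest genes were *P4ha2* (43.2 and 38.3), *Dgki* (36.9 and 44.9) and *Gpm6a* (36.9 and 40.1, with 81.8% of the words around its summit repeated). *Flt3*, *P4ha2*, *Dgki* and *Gpm6a* were at mean levels of 0.146, 0.624, 0.00111 and 0.00783 RPKM, so these regions were not beside genes of high expression. A region in an exon of *Xist*, the RNA that coats the inactive X chromosome, was also in both KO lists, at percentiles 66.4 and 29. The peaks on Y numbered 33 and 39 in the WT lists and 36 and 33 in the KO lists, for control and TGF-β + IL-4. In RNA, *Xist* was at 1.5 to 2.44 RPKM in WT and 0.946 to 2.14 RPKM in KO columns. Summed with the Y genes *Ddx3y*, *Kdm5d*, *Eif2s3y* and *Uty*, it reached 1.51 to 2.52 and 0.97 to 2.14 RPKM. The Y genes thus added little in any column.

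In the KO control list alone, the strongest regions were near *Zfp1* (percentile 64.5), *Zhx2* (64.3), *Fam49a* (62), *Cables2* (61.3) and *Sgk1* (60.1). *Sgk1* encodes a serum- and glucocorticoid-regulated kinase, and its summit lay 483 bp upstream of a start. The same summit was in a later exon of *Sgk1*, and 80.6% of the bases of the region were in such exons. In the cytokine list alone, those after *Rpl4* were near *Frem2* (65.4), in *Rps15* (65.2), near *Gpr133* (64.5) and at *Ccnd2* (61.8). Of the words around the summits near *Frem2* and *Gpr133*, 72.7% and 90.9% were repeated. *Ccnd2* encodes cyclin D2, which drives G1 progression, and its summit lay 7 bp downstream of the start (chr6:127100922-127101184). *Ccnd2* RNA was at 249, 306 and 373 RPKM in WT and 265, 304 and 353 RPKM in KO columns (lowest, median, highest), which overlapped.

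Consensus motifs within 100 bp of the summits differed with the list that held a region. Matches were counted on both strands, and a match describes letters, not binding. The STAT6-type spacing, an inverted repeat with a gap of 4 bases, was found in 98 of 858 regions of the KO cytokine list alone (11.4%, Wilson interval 9.46 to 13.7) and in 62 of 1758 of the KO control list alone (3.53%, 2.76 to 4.5), compared with 5.63% of all merged regions. The WT lists showed the same order, with 11.2% in the cytokine list alone and 5.21% in the control list alone. The GATA consensus AGATAAG, bound by the Th2 factor Gata3, was found in 4.2% (3.05 to 5.75) of the KO cytokine list alone and in 1.82% (1.29 to 2.56) of the KO control list alone, with 2.11% of all regions. In the WT lists alone it was at 2.44% and 2.49%.

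A CTCF consensus, bound by the insulator protein CTCF, was found in 16.6% (14.9 to 18.4) of the KO control list alone and 16.8% (12.1 to 22.9) of both KO lists, but 8.04% (6.4 to 10.1) of the KO cytokine list alone, with 11.7% of all regions. In the WT control list alone it was in 9.08% (8.5 to 9.69). Outside promoters, the CTCF consensus was in 16% (14.5 to 17.6) of regions found in KO lists only. There it was in 10.4% of WT lists only, 16.7% (16.2 to 17.2) of both genotypes and 14.5% of all. Away from promoters, regions found in KO lists only thus had no higher share than those of both genotypes. The AP-1 consensus TGANTCA, bound by Fos and Jun proteins, was in 10.1% (8.75 to 11.6) of the KO control list alone and 25.9% (25 to 26.9) of the WT control list alone. In the lists with TGF-β + IL-4 the order was the other way, at 13.5% (11.4 to 16) for KO and 6.49% (5.58 to 7.55) for WT, with 15.2% of all regions. The IRF consensus was in 2.56% of the KO control list alone and 8.4% of the WT control list alone. The Smad palindrome GTCTAGAC was rare, at 0.179% of regions found in KO lists only and 0.219% of all.

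**Figure D4:**
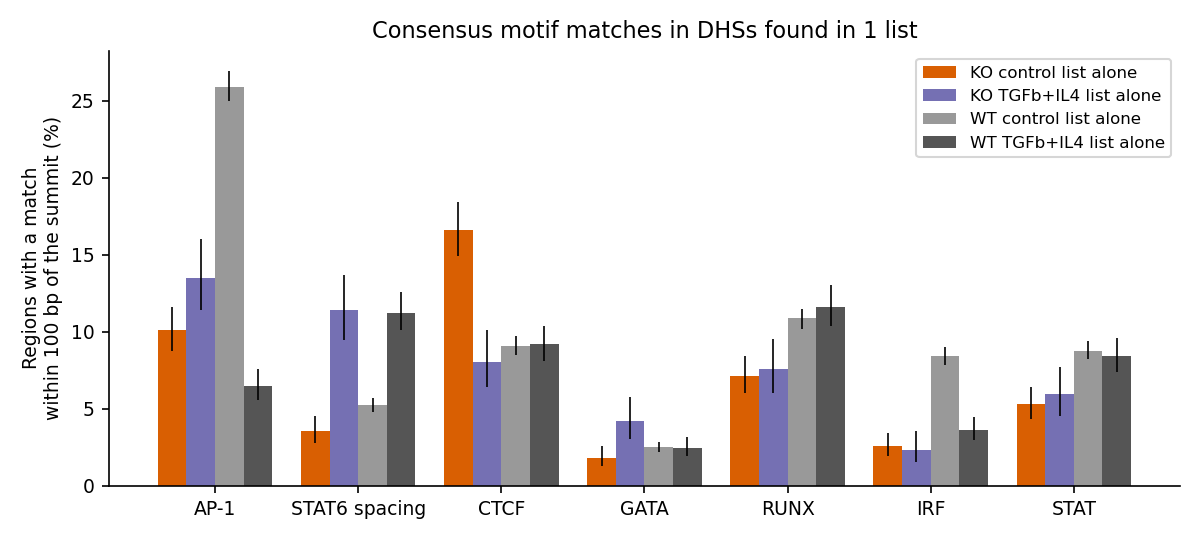
Share of regions with a consensus match within 100 bp of the summit (y axis, %), for 7 motifs and regions found in 1 list alone; error bars are 95% Wilson intervals, which cover counting error only. The STAT6 spacing is at 11.4% and 11.2% in the lists with TGF-β + IL-4 and at 3.53% and 5.21% in the control lists, and CTCF is highest in the KO control list alone (16.6%).

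The nearest genes were then examined in the RNA-seq data, which the rule had not used. A conflict in the table of RPKM values must be stated first. For 8 WT libraries, the read counts given with the study could be matched to a column by which genes were at 0, and the matching column carried that library's heading for 2 and another library's heading for 6. All 8 matching columns were headed WT, so genotype was kept, but culture and mouse were not. The 8 libraries were replicates 1 and 3 of each culture. The other 4 WT and all 12 KO columns were not settled. KO columns with the same heading could differ widely. *Gata3* RNA was at 8.6, 71.4 and 77.3 RPKM in those headed KO TGF-β + IL-4. In those headed KO control it was at 8.51, 7.09 and 58.8 RPKM. Whether KO columns headed alike hold 1 culture was not tested. The main comparison therefore used the mean of the 4 columns headed as 1 mouse, 3 against 3. These are called means per mouse below, but they are means by heading. Columns headed WT mouse 1 held libraries of mice 1 and 3, so the spread is not that between mice. The SEs and adjusted p of this comparison therefore do not measure variation between WT mice. *Tgfbr1* RNA itself, the deleted gene, was at 3.02, 8.91 and 20.7 RPKM in WT columns and 2.32, 3.11 and 5.18 RPKM in KO columns (lowest, median, highest). It fell by 1.11 on the log2(RPKM + 1) scale (SE 0.04, limma adjusted p = 9.82e-08) in the means per mouse. In control alone it was not called, with a log2 difference of −0.89 (limma adjusted p = 0.291) as headed and −0.24 (0.218) with the WT libraries identified from read counts. Under TGF-β + IL-4 these were −1.48 (0.214) and −2.24 (0.000124). The part of the gene that was deleted is not given in the sources used here. Both DHSs within *Tgfbr1* were of both genotypes. As a check of the cell type, the 10 CD4 T cell markers summed to 2240 to 2900 RPKM over all columns, the 2 CD8 markers to 16.6 to 36.3 RPKM in WT and 14.3 to 28.3 RPKM in KO columns, and the 7 B cell markers to 12.3 to 36 RPKM in WT and 8.61 to 27.5 RPKM in KO columns. Of these, *Cd8a* (1 of 2 tested) and *Cd79a* (1 of 4) were lower in KO. The 11 myeloid and NK markers summed to 12.3 to 130 RPKM in WT and 3.06 to 27.2 RPKM in KO columns, and 3 of the 5 tested were lower in KO (*Lyz2*, *S100a8* and *S100a9*). Their part in the differences below was not tested, and in bulk RNA fewer cells of a type cannot be told apart from less RNA per cell.

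The 2800 regions had 2342 nearest genes, of which 1373 passed the filter of a mean of 1 RPKM. With an adjusted p below 0.01 and more than 1.5-fold change required, limma called 106 of the 1373 (7.72%), against 5.18% of all 9726 genes tested. Of these, 29 were higher in KO (2.11%, against 1.2% of all genes) and 77 were lower (5.61%, against 3.98%). The nearest genes of regions in WT lists only were called in 7.6% of cases and those of regions of both genotypes in 5.07%, so the share was close to that of WT lists only. The median log2 difference was −0.00 for the nearest genes and 0.02 for all genes tested. With the summit in a promoter, 24 of 378 genes were called (6.35%), 9 higher and 15 lower, and the median difference was 0.01. Genes near regions of both KO lists were called in 8 of 109 cases, 4 in each direction.

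The control columns alone gave 0 calls among 1360 nearest genes tested, with 322 at an unadjusted p under 0.05, where limma called 7 of 9672 genes (0.0724%). The TGF-β + IL-4 columns gave 0 among 1373, with 309 at an unadjusted p under 0.05, and 0 of all 9732 genes (0.0%). The WT libraries identified from the read counts were then used in place of the headings. Only WT replicates 1 and 3 of each culture were identified, so these fits had fewer WT libraries than the 3 used as headed. KO columns stayed as headed, and their cultures are not settled. In control, 2 of 1353 nearest genes were called (0.148%, against 0.114% of all genes tested). In TGF-β + IL-4, 188 of 1377 were then called (13.7%, against 9.09% of all). Of these, 29 were higher in KO (2.11%, against 2.31% of all genes tested) and 159 lower (11.5%, against 6.79% of all). For nearest genes of regions in WT lists only, the same fit called 12.7%, with 2.69% higher and 9.96% lower, so the shares were close. The count of 0 under TGF-β + IL-4 thus depended on which WT columns were used. As columns were headed, the 5 nearest genes of lowest p in control were *Fscn1*, *Ifi27l2a*, *Uba7*, *Ehd3* and *H2-D1* (limma adjusted p between 0.0105 and 0.028), and under TGF-β + IL-4 they were *Ehd3*, *Arhgef3*, *Scd2*, *Ifi27l2a* and *Ly9* (0.0151 to 0.0628).

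Among the nearest genes that rose, *Tnfsf8*, encoding CD30 ligand, was at 5.27, 12.9 and 30.4 RPKM in WT and 26.7, 34.1 and 49.1 RPKM in KO columns (lowest, median, highest). Its log2 difference was 1.37 (SE 0.03, limma adjusted p = 2.43e-09), although 7 of the 12 KO columns lay above all WT columns and the others overlapped. The region lay 37047 bp upstream, in the cytokine list alone at percentile 43.4. *Ehd3*, encoding an endosomal trafficking protein, was at 3.27, 3.77 and 4.25 RPKM in WT and 7.27, 7.96 and 10.5 RPKM in KO columns, which did not overlap (log2 difference 0.97, SE 0.04, limma adjusted p = 1.26e-07). Its region lay 15027 bp upstream in the same list, at percentile 8.4. *Arhgef3*, encoding a guanine nucleotide exchange factor, also separated fully, at 16.8, 22 and 27.3 RPKM in WT and 29.9, 36.3 and 39.7 RPKM in KO (log2 difference 0.7, limma adjusted p = 2.47e-07). Its region was farther away, 75914 bp downstream, in the control list alone at percentile 7.2.

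Most of the largest differences were falls. *Fcrl1*, an Fc receptor-like gene, was at 2.44, 11.5 and 20.6 RPKM in WT and 0.254, 0.926 and 1.47 RPKM in KO, and fell by 2.51 on the log2 scale (SE 0.05, limma adjusted p = 2.23e-09). Every KO column was below every WT column. The same separation was seen for *Dusp4*, a MAP kinase phosphatase gene (medians 40.4 and 11.1 RPKM), *Scd2*, a fatty acid desaturase gene (36.2 and 10.5 RPKM), *Elk3*, an ETS factor gene (14.1 and 4.42 RPKM), and *Ifi27l2a*, an interferon-inducible gene (323 and 71.5 RPKM). *Lta*, encoding lymphotoxin α, fell from 174 to 47.7 RPKM, *Igfbp4*, encoding an insulin-like growth factor binding protein, from 108 to 24 RPKM, *Fscn1*, encoding the actin bundler fascin, from 11.4 to 3.45 RPKM, and *Emp1*, encoding an epithelial membrane protein, from 1.56 to 0.0792 RPKM, as medians, with partial overlap of the columns. All 9 fell by 1.3 or more on the log2 scale and passed the test. Their regions were weak, at percentile 27.6 or below, except for that of *Ifi27l2a*, which lay in a later exon and reached percentile 78.1 of the cytokine list. The regions of *Scd2* and *Igfbp4* were in exons too, in the cytokine list alone. Those of *Dusp4* and *Emp1* were the farthest of the 9 from a start, at 271679 bp upstream and 60993 bp downstream.

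**Figure D5:**
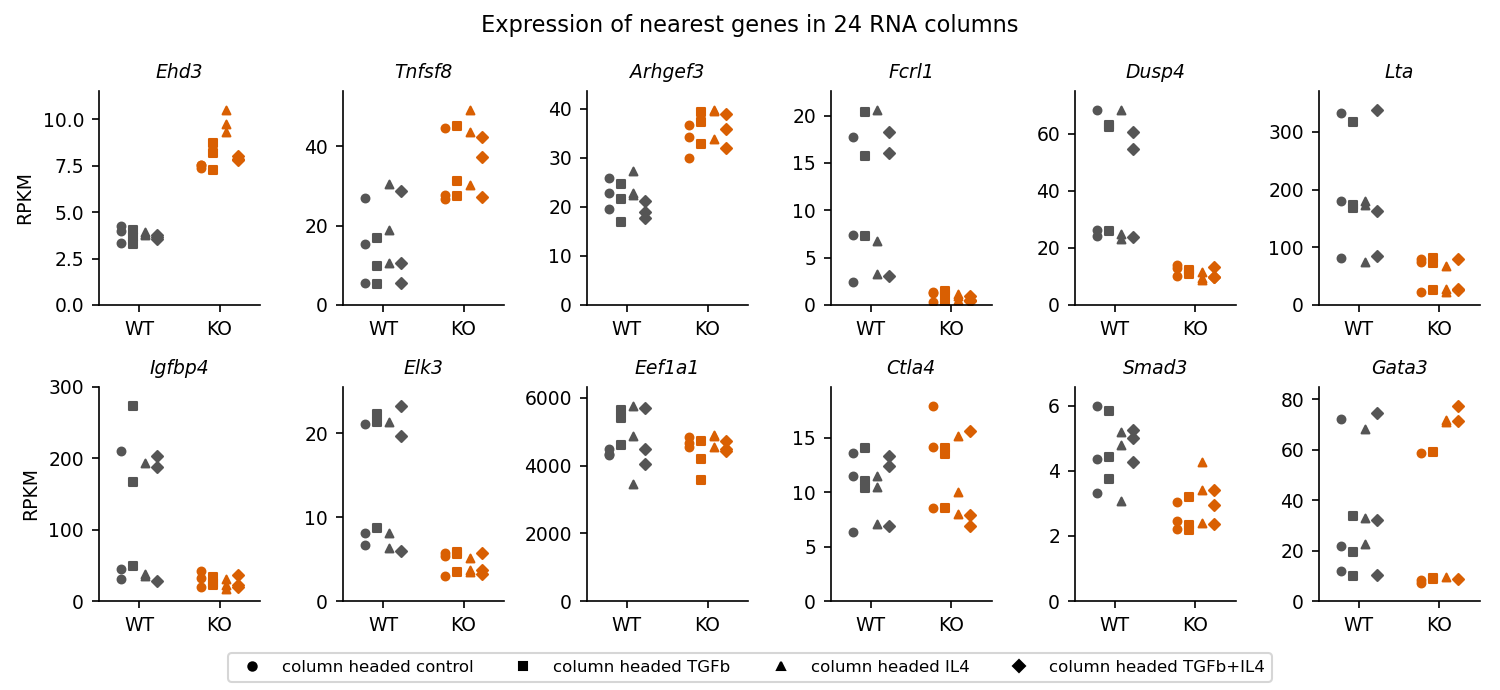
RPKM (y axes, from 0) of 12 nearest genes in 12 WT and 12 KO columns, with symbols for the culture in the column heading; for 6 of 8 WT libraries that heading was another library's. *Ehd3* and *Arhgef3* are higher in all KO columns, *Fcrl1*, *Dusp4* and *Elk3* lower in all, and *Eef1a1*, *Ctla4* and *Gata3* overlap.

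All 76 highly expressed genes with a later-exon region were tested, 5 were called (6.58%, against 5.18% of all genes), and the median difference was −0.03. *Ms4a4b*, *Ms4a6b* and *Cd53* were higher in KO by 1.16, 0.92 and 0.89 on the log2 scale, and *Ifi27l2a* and *Ltb* fell by 1.93 and 0.67.

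Regions beside genes of the TGF-β pathway were described from lists of known genes, with a summit within 100 kb. Of the 15 genes of the list of TGF-β receptors, Smads and feedback regulators, 5 had such a region as nearest gene, with 9 regions of the 172 merged regions there (5.23%, against 5.58% of all). *Smad3*, the receptor-activated Smad, had 3, of which the one at chr9:63604492-63604817, in an intron 1084 bp downstream of a start, was in both KO lists at percentiles 4.91 and 18.1. *Smad3* RNA was at 3.06, 4.6 and 5.98 RPKM in WT and 2.19, 2.7 and 4.27 RPKM in KO columns, and its log2 difference of −0.54 (limma adjusted p = 7.99e-06) was short of the fold threshold. *Smad7*, which inhibits the receptor, and *Tgfbr3*, a coreceptor, had 2 each, and *Smad4* and *Tgfbr2* had 1 each, all in the KO control list alone. The strongest of these was at the *Smad4* promoter, at percentile 32.3. Of the 11 genes of the list that were tested, 5 were lower in KO (*Tgfbr1*, *Ski*, *Skil*, *Pmepa1* and *Tgfb1*) and none higher, where 3.98% of all genes tested were lower and 1.2% higher.

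In the Th9 and IL-4 list, 8 of 22 genes had a region, 13 of 204 in all (6.37%). *Irf4*, encoding a factor required for Th9 cells, had 1 at 26898 bp downstream (percentile 41.2, cytokine list alone), and *Nfatc1*, encoding a factor activated by calcineurin, had 1 in an intron (percentile 44.6, control list alone). *Batf* and *Jak1* had 3 each and *Batf3* 2, none over percentile 24.4. Of 19 genes tested, 6 were lower in KO and none higher (3.98% and 1.2% of all genes), among them *Batf3* and *Stat5b*, which fell by 0.77 and 0.76 on the log2 scale (limma adjusted p = 2.5e-06 and 2.23e-07). No region had *Il9* or *Tgfbr1* as its nearest gene, nor *Dbp* or *E2f8*. *Il9* RNA was at 8.15, 25.5 and 45.9 RPKM in WT and 0.25, 0.914 and 2.72 RPKM in KO columns. The medians of *Dbp* were 4.2 and 2.66 RPKM and those of *E2f8* 6.36 and 8.79 RPKM, and neither passed the fold threshold in the means per mouse. Under TGF-β + IL-4 with the identified WT libraries both were called. *Dbp* was lower in KO (log2 difference −1.52, limma adjusted p = 0.000449) and *E2f8* higher (0.75, limma adjusted p = 0.00201). That fit held WT replicates 1 and 3 only, KO columns whose culture is not settled, and was chosen after the data were seen. As headed, neither was called there (limma adjusted p = 0.289 and 0.314).

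In the Th2 list, 4 of 11 genes had a region, 5 of 56 in all (8.93%). *Gata3*, the Th2 master regulator, had 2 in the cytokine list alone, 1 of them 15 bp downstream of a start at percentile 24.4 (chr2:9800109-9800317). An intronic region whose nearest gene was *Il4* was in the same list at percentile 28.6. *Gata3* RNA overlapped widely, at 9.86, 27.4 and 74.8 RPKM in WT and 7.09, 34.2 and 77.3 RPKM in KO columns, and *Il4* was low, with medians of 1.46 and 0.729 RPKM. *Ccr4*, a chemokine receptor gene with an intronic region in the cytokine list (percentile 7.19), fell by 1.09 on the log2 scale (limma adjusted p = 1.05e-08), and *Ccr8* was lower too, 2 of 6 tested (3.98% of all genes). The Th17 and Treg list had 4 regions among 116 (3.45%), of which the one 9546 bp upstream of *Ctla4*, an inhibitory receptor gene, was in both KO lists at percentiles 18 and 46.9 (chr1:60956141-60956471). *Ctla4* RNA was at medians of 11.2 RPKM in WT and 11.7 RPKM in KO columns. *Ahr*, encoding the aryl hydrocarbon receptor, had a very weak promoter region (percentile 0.111 of the cytokine list) and was at 0.572, 1.77 and 3.69 RPKM in WT and 0.163, 0.274 and 0.415 RPKM in KO columns, without overlap. Of 13 genes tested in this list, 9 were lower in KO and none higher (3.98% and 1.2% of all genes). The Th1 and cytotoxic list had 5 regions among 151 (3.31%), and 3 of its 18 tested genes were higher and 5 lower in KO (1.2% and 3.98% of all genes).

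The list of activation genes and inhibitory receptors also holds genes of cytokines and transcription factors. Of its 27 genes, 7 had a region, 11 of 223 in all (4.93%). There were 3 near *Cd28*, encoding the costimulatory receptor, and 2 each near *Tigit* and *Egr3*. *Id2*, encoding an inhibitor of E proteins, had 1 at 2839 bp upstream (percentile 41.4), and *Entpd1*, encoding the ectoenzyme CD39, had 1 at its start (percentile 25), both in the control list alone. *Il2* and *Id3* were higher and *Tnf*, *Nr4a3*, *Nt5e* and *Tnfrsf4* lower in KO among 24 tested (1.2% and 3.98% of all genes). Among naïve and homing genes, 4 of 11 had a region, 9 of 227 (3.96%), and 5 of these had *Bach2*, a repressor gene that restrains effector differentiation, as nearest gene, among 72 merged regions nearest to it. *Bach2* RNA was at medians of 17.9 and 13.1 RPKM (log2 difference −0.34, limma adjusted p = 1.2e-05), short of the fold threshold. None of the 10 tested genes of this list was called. Of the 28 merged regions beside myeloid and NK markers, 5 were in KO lists only (17.9%, against 5.58% of all), with 2 near *Itgam* and 1 each near *Itgax*, *Klrb1c* and *Fcgr3*. *Fcgr3*, a myeloid and NK Fc receptor gene, had a promoter region in both KO lists at percentiles 34.5 and 54.7, where 54.5% of the words around the summit were repeated, and its RNA was at medians of 1.12 and 0.888 RPKM.

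The difference between KO and WT under TGF-β + IL-4 less that in control was tested for all 9706 genes that passed the filter. With limma, 0 had an adjusted p under 0.05, and the smallest among 139 genes named or described here was 0.999. This fit used the column headings, which for 6 of 8 matched WT libraries were another library's. Its WT groups therefore mixed cultures, and it cannot show whether the KO difference varied with culture.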

How the data were processed

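DNase-seq and RNA-seq of mouse CD4+ T cells were analysed from the deposited files. Per the labels and the study's methods, the authors used Bowtie2 and mm9 for alignment, discarded duplicates and poorly mapped reads, and called narrow peaks library by library with MACS2; versions are not given in the sources used here. The deposited lists give each peak's fold enrichment as a ratio over background, its −log10 p and −log10 q, and the summit offset. DNase-seq depth is unknown, since no counts are in the lists. For RNA-seq the authors deposited RPKM per gene, made with edgeR, for 24 columns and 24089 genes.

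Peaks were merged at 1 bp of overlap. The strongest KO peak gave the summit, and the nearest gene was the one with the closest transcript start among 20761 genes of the table found in GENCODE vM1. Repeats were counted as 32-base words taken every 8 bp. Nearest genes were tested with limma 3.58.1 (R 4.3.3) on log2(RPKM + 1), over all genes with a mean of at least 1 RPKM, between genotypes, and a call needed an adjusted p (Benjamini-Hochberg) below 0.01 with more than 1.5-fold change. Fold changes on this scale understate those of low genes. Python 3.11.15, numpy 2.4.6, pandas 2.3.3, scipy 1.17.1 and matplotlib 3.10.9 were used otherwise. The limma step was tested on simulated data. Files of the authors' own comparisons served only to match libraries to columns by their 0 values, and no value was taken from them.

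The regions and gene lists were chosen with earlier results of these data known. The genes named were the 10 strongest regions of both KO lists and the 5 strongest of each KO list alone, up to 10 called nearest genes of largest fold per fit (or the 5 of lowest p where none was called), listed genes within 100 kb, the 5 genes nearest to most regions, and *Tgfbr1*, *Il9*, *Dbp* and *E2f8*. The later-exon summits and the genes named with them were chosen after their values were seen. WT and KO mice of the same number are different mice. Deviations of same-numbered columns correlated at 0.21, 0.2 and 0.37 in control, so the numbers were also used as a replicate block, which gave 0 calls among the nearest genes there. Correlations were 0.07, −0.02 and −0.24 for means per mouse and 0.39, 0.27 and 0.05 under TGF-β + IL-4. No replicate of DNase-seq exists here, and RNA-seq p-values measure only the spread between these columns. Alternatives are given in the closing section.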

Additional observations from a re-analysis of the deposited data

How the results depend on the processing

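The number of regions found in KO lists only depended on the rule. In place of 2800 it was 4559 when a peak had to overlap by at least 50% of each peak, 4992 with the same number of top peaks (27145) from every list, and 1330 with a −log10 q of at least 5 asked of the KO lists alone; it was between 1957 and 2255 when peaks up to 500 bp apart were joined, when that q was asked of every list (1964) and without the KO cytokine list, a setting chosen after seeing the data, as was that of the identified WT libraries. The share with a promoter summit, 22.2% (Wilson interval 20.7 to 23.8), was 31.7% with a promoter window of 2500 bp, 28.8% at the 50% overlap, 15.3% with peaks up to 500 bp apart joined, 20% with the q asked of the KO lists and 20.6% with lists of equal length. The share in both KO lists, 6.57%, was 15.2% with lists of equal length. The 81 later-exon regions of highly expressed genes numbered 54 to 94 under the other peak rules and 19 without the KO cytokine list. That list alone held 63 of the 81, so most of the latter drop was fixed beforehand.

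The 106 called nearest genes in the mean per mouse became 71 to 138 under the alternatives, 101 to 110 with a replicate left out and 106 with the replicate block. In control, the 0 calls became 1 with a pseudocount of 0.1, 1 with median ratio scaling, 6 at an adjusted p under 0.05 and 2 with the identified WT libraries, and 0 to 3 with a replicate left out (3 without WT replicate 2). Under TGF-β + IL-4 they became 2 at an adjusted p under 0.05 and 188 with the identified WT libraries (replicates 1 and 3 only). With a replicate left out they became 0 to 76 (76 without WT replicate 2). The replicate block gave 0 in both and changed no other call count by over 1.5 times. The cause of these changes was not tested. With 1 DNase-seq library per condition and unknown depth, absence from a WT list does not show that a site was closed.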
